A study of Mus musculus with 8 samples.

Results

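R-spondins and the membrane proteins that receive them were followed through the mouse choroid plexus, the epithelium and stroma of the brain ventricles that makes cerebrospinal fluid. The 9 genes were taken by symbol: the secreted R-spondins Rspo1, Rspo2, Rspo3 and Rspo4, the receptors Lgr4, Lgr5 and Lgr6, and the ubiquitin ligases Znrf3 and Rnf43. All 9 were found among the 23284 genes of the deposited count table, and all 9 passed the low-count filter that left 15698 genes for testing. Embryos were at stage E18.5 and 4 groups of 2 libraries were compared. Hindbrain sorted cells and telencephalic sorted cells were fluorescence-sorted epithelial cells carrying a red reporter of Ttr, the transthyretin gene, from the strain given as ICR (CD1). Hindbrain whole tissue and telencephalic whole tissue were undissociated choroid plexus of the fourth and the lateral ventricles, from the strain given as CD1. No knockout, drug or other treatment is recorded for any group. The series' design text calls the 2 libraries of a group biological replicates and states that both regions came from the same brains, but not whether embryos were pooled. Sorted and whole libraries carry different sample names and were taken to come from different brains, so preparation cannot be told apart from brain or from the strain label. The labels do not say whether the whole-tissue embryos carried the Ttr reporter, and a difference in genotype cannot be told apart from preparation either.

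R-spondins do not signal alone. In their best-known mode they bind an Lgr receptor together with Znrf3 or Rnf43, 2 ligases that remove Frizzled receptors from the cell surface. By clearing the ligases they leave more Frizzled available to Wnt proteins. Lgr5 is best known as a stem cell marker of the intestine, and in many tissues Znrf3 and Rnf43 are themselves targets of Wnt signalling through beta-catenin. In the embryonic brain, Wnt and R-spondin genes are used at the dorsal midline, from which the choroid plexus arises.

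The libraries held between 8849053 and 31613434 counts. Between replicates, the chi-square per degree of freedom was largest in hindbrain sorted cells, at 61.1. It was 15.8 for telencephalic sorted cells, 12.35 for hindbrain whole tissue and 5.16 for telencephalic whole tissue. This measure grows with depth and with differences in the most abundant genes. The Spearman correlations of the replicates were close, at 0.98, 0.984, 0.989 and 0.987 in the same order. Ttr took between 15.8% and 23.6% of the counts of a library. The ribosomal precursor Rn45s took 4.07% to 4.40% in whole tissue but 6.49% to 13.9% in sorted cells, and it differed between the hindbrain sorted replicates (6.49% and 11.3%). All 11 choroid epithelial markers, Ttr among them, had counts in every library. Their sums were 167400 and 218700 CPM in hindbrain sorted cells, against 290700 and 266600 in telencephalic sorted cells. In whole tissue they were 146700 and 148600 CPM in the hindbrain, against 195300 and 179800 in the telencephalic libraries. These sums were mostly Ttr, which took 16.4% and 19.6% of the counts in hindbrain sorted cells and 23.6% and 22.3% in telencephalic sorted cells. They do not describe the 11 markers evenly: at an adjusted p below 0.05 (edgeR), 3 were lower and 1 higher in hindbrain sorted cells. The part of the regional difference of these sums in the levels of the 9 genes was not tested. Markers of other cell types did not differ evenly between sorted cells and whole tissue. Summed over 9 genes, macrophage markers stood at 219 and 173 CPM (counts per 1000000 of the scaled library) in hindbrain sorted cells, 35.9 and 59.9 in telencephalic sorted cells, 214 and 217 in hindbrain whole tissue and 158 and 174 in telencephalic whole tissue. The 10 mesenchymal markers summed to 2109 and 1612, 919 and 955, 1880 and 2123, and 1296 and 1550 CPM in the same order of groups. Endothelial markers were at 159 and 159, 114 and 122, 617 and 669, and 583 and 616 CPM. Of the 8 endothelial markers, 8 were lower in sorted cells than in whole tissue in both regions. Over all tested genes the share lower was 11.9% in the hindbrain and 12.5% in the telencephalic plexus.

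Rspo2 and Rspo3 carried the regional difference of the family. Both fell in the hindbrain, in sorted cells and in whole tissue alike, while the receptor Lgr4 averaged between 72.8 and 79.3 CPM in the 4 groups. Among the ligases Rnf43 was lower in the hindbrain in both preparations and Znrf3 was not called. In sorted cells 3 of the 9 genes were lower in the hindbrain and 0 higher, where 15.2% of all tested genes passed, 9.06% higher and 6.12% lower. In whole tissue the same 3 genes were lower and 0 higher, where 5.79% passed, 3.34% higher and 2.45% lower. Called means an adjusted p below 0.05 by the quasi-likelihood F test of edgeR, adjusted by the Benjamini-Hochberg method over all 15698 genes. The median log2 fold change of the 9 genes was -0.815 in sorted cells and -0.57 in whole tissue, against -0.001 and 0.005 over all genes. All fold changes below are hindbrain over telencephalic, or sorted over whole, on the log2 scale with the standard error of the fit. With 2 libraries in a group, a lack of overlap between groups is weak evidence by itself. Its share over all genes is not given here, so it is only a description of the values.

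Rspo2 acts in limb, lung and craniofacial development. It had 1.06 and 1.17 CPM in hindbrain sorted cells (29 and 32 counts), against 38.6 and 45 CPM in telencephalic sorted cells (1020 and 726 counts). In whole tissue it had 1.77 and 2.08 CPM in the hindbrain (44 counts in each library), against 23.6 and 26.8 CPM in the telencephalic libraries (385 and 256 counts). All 4 hindbrain libraries lay far below all 4 telencephalic ones, and neither preparation showed any overlap. The change was -5.22 ± 0.21 in sorted cells, 37.3-fold lower in the hindbrain (adjusted p = 3.1e-08), and -3.71 ± 0.20 in whole tissue, 13.1-fold lower (adjusted p = 6.51e-07). Ordered by fold change among the 15698 genes, Rspo2 was number 16 from the lowest in sorted cells and number 14 in whole tissue.

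The regional difference of Rspo2 was itself larger in sorted cells. The interaction was -1.51 ± 0.29 on the log2 scale (adjusted p = 0.022, edgeR's quasi-likelihood test), in a test that called 1.34% of all genes (1.1% higher, 0.242% lower) and 1 of the 9, lower. The 2 regions moved in opposite directions with the sort. Of the 9 genes, 2 were lower and 0 higher in hindbrain sorted cells than in hindbrain whole tissue, where the share of all genes called was 22.1% (10.2% higher, 11.9% lower). In the telencephalic plexus 1 was higher and 0 lower, where it was 22.4% (9.88% higher, 12.5% lower). Telencephalic sorted cells held 41.8 ± 4.6 CPM (SD, n = 2), against 25.2 ± 2.3 CPM in telencephalic whole tissue, a change of 0.73 ± 0.16 (adjusted p = 0.00712). Hindbrain sorted cells held 1.12 ± 0.08 CPM, against 1.93 ± 0.21 CPM in hindbrain whole tissue, a change of -0.78 ± 0.24 (adjusted p = 0.0353). The interaction call was lost when any 1 library other than hindbrain sorted replicate 2 was left out (adjusted p between 0.051 and 0.129), with values from -1.63 to -1.40 over all 8 omissions. The hindbrain sort call was lost in 6 of the 8 omissions (highest adjusted p = 0.182) and with only the 4 hindbrain libraries in the fit (adjusted p = 0.289). The telencephalic sort call did not hold after omitting sorted replicate 2 (adjusted p = 0.0703) or whole replicate 1 of that region (adjusted p = 0.106), nor, at 0.415, with library totals as the scale (adjusted p = 0.0896).

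Rspo3, which in mice is needed for placental and vascular development, showed the same regional order with a smaller difference. It had 3.02 and 2.17 CPM in hindbrain sorted cells, against 11.6 and 16.7 CPM in telencephalic sorted cells. In whole tissue it had 2.86 and 3.31 CPM in the hindbrain, against 11.5 and 15.1 CPM in the telencephalic libraries. The groups of the 2 regions did not overlap in either preparation. The change was -2.44 ± 0.265 in sorted cells, 5.42-fold lower (adjusted p = 6.43e-05), and -2.10 ± 0.27 in whole tissue, 4.29-fold lower (adjusted p = 0.000508). Unlike Rspo2, Rspo3 had an interaction that was not called, at -0.34 ± 0.38 (95% interval -1.16 to 0.48). Sorting was not called either: -0.25 ± 0.28 in the hindbrain and 0.09 ± 0.25 in the telencephalic plexus. In the mouse annotation GENCODE M21 an exon of the unnamed gene Gm48159, on the opposite strand, shares 404 bases with Rspo3, and whether the counting separated the strands is not given in the sources used. No other gene of the 9 shared exon bases with another gene in that annotation.

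The markers moved with region too. Over all tested genes 9.06% were higher and 6.12% lower in sorted cells, and 3.34% and 2.45% in whole tissue. In sorted cells 9 of 9 macrophage, 9 of 10 mesenchymal, 5 of 7 mural and 4 of 8 endothelial markers were higher in the hindbrain, while of 11 epithelial markers 1 was higher, 3 were lower and 7 were not called. In sorted cells, of 7 tested progenitor or glial markers 3 were higher and 2 lower, of 5 neuronal ones 1 was higher and 1 lower, and of 2 erythroid ones 0 were called by edgeR. In whole tissue 1 of 9 macrophage, 5 of 10 mesenchymal, 1 of 8 endothelial, 0 of 7 mural, 1 of 2 erythroid, 2 of 5 neuronal, 1 of 7 progenitor or glial and 1 of 11 epithelial markers were higher and 1 epithelial marker was lower. The part of these cells in the falls of Rspo2 and Rspo3 was not tested. In bulk RNA, fewer cells that express a gene and less RNA per cell cannot be told apart.

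**Figure D1:**
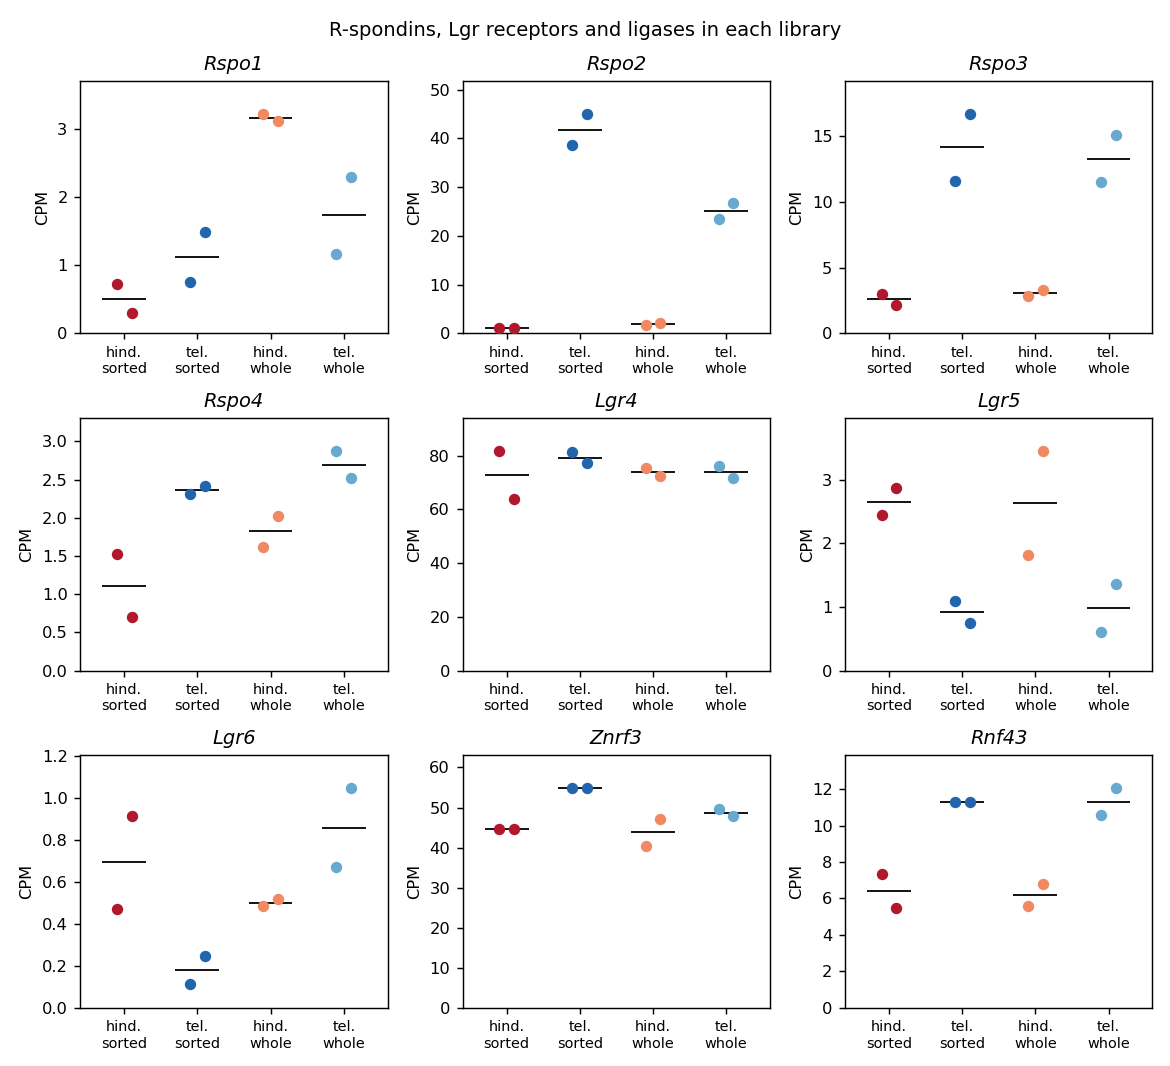
CPM of each of the 9 genes in the 8 libraries, 1 panel per gene with its own axis from 0. Points are single libraries and lines are the means of 2 in hindbrain (hind.) or telencephalic (tel.) sorted cells and whole tissue; Rspo2 lay between 1.06 and 2.08 CPM in the 4 hindbrain libraries and between 23.6 and 45 CPM in the 4 telencephalic ones.

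Rspo1, a factor of ovary development, was lower in sorted cells than in whole tissue of the hindbrain. It had 0.728 and 0.294 CPM in hindbrain sorted cells (20 and 8 counts), against 3.23 and 3.12 CPM in hindbrain whole tissue (80 and 66 counts). This fall of -2.62 ± 0.55 was 6.15-fold (adjusted p = 0.00571) and stayed called under all 14 alternatives run for it, with values from -3.41 to -2.115. In the telencephalic plexus sorted cells had 0.756 and 1.49 CPM, against 1.16 and 2.31 CPM in whole tissue, and the groups overlapped (-0.62 ± 0.56, not called, 95% interval -1.84 to 0.60). By region the values were -1.09 ± 0.58 in sorted cells and 0.91 ± 0.53 in whole tissue, neither called. The regions did not overlap: hindbrain lay below telencephalic in sorted cells and above it in whole tissue, and the interaction of -2.001 ± 0.79 was not called (adjusted p = 0.425). In sorted cells the margin was narrow. Replicate 1 of each region had 20 counts (0.728 and 0.756 CPM), so their order rests on the library scaling. In the hindbrain 8 of 8 endothelial, 4 of 7 mural, 2 of 2 tested erythroid, 4 of 5 tested neuronal and 5 of 7 tested neural progenitor or glial markers were also lower in sorted cells. Of the macrophage markers 2 of 9 were lower, and of the 10 mesenchymal markers 1 was lower and 1 higher. Of the 11 epithelial markers 3 were higher and 0 lower. Over all tested genes 11.9% were lower and 10.2% higher in this comparison. The part of the other cell types in the fall of Rspo1 was not tested.

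Rspo4, which in humans is a gene of nail formation, was low in all groups. It had 1.53 and 0.697 CPM in hindbrain sorted cells, against 2.31 and 2.42 CPM in telencephalic sorted cells. It had 1.61 and 2.03 CPM in hindbrain whole tissue, against 2.87 and 2.52 CPM in telencephalic whole tissue. The regions did not overlap in either preparation, with the hindbrain below, but neither -1.08 ± 0.43 (adjusted p = 0.12) nor -0.57 ± 0.43 (adjusted p = 0.6) was called. Without hindbrain sorted replicate 1 the value in sorted cells was -1.75 and was called (adjusted p = 0.0219), whereas without hindbrain sorted replicate 2 it was -0.63 (adjusted p = 0.309).

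Divided by exon length, the makeup of the R-spondin transcripts differed by region. Lengths were those of the merged exons in GENCODE M21 (1834 bases for Rspo1, 3349 for Rspo2, 3085 for Rspo3 and 2371 for Rspo4). Summed over the 4 ligands, the level was 2.34 and 1.51 CPM per kb in hindbrain sorted cells, against 16.7 and 20.7 in telencephalic sorted cells. It was 3.90 and 4.25 CPM per kb in hindbrain whole tissue, against 12.6 and 15.2 in telencephalic whole tissue. Rspo2 made up 13.5% and 23.3% of that sum in hindbrain sorted cells, against 69.1% and 65.0% in telencephalic sorted cells. In whole tissue Rspo2 made up 13.6% and 14.6% in the hindbrain, against 55.8% and 52.6% in the telencephalic libraries. Rspo3 led in hindbrain sorted cells, with 41.9% and 46.6%, and Rspo1 led in hindbrain whole tissue, with 45.1% and 40.0%. These shares describe RNA and were not tested.

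**Figure D2:**
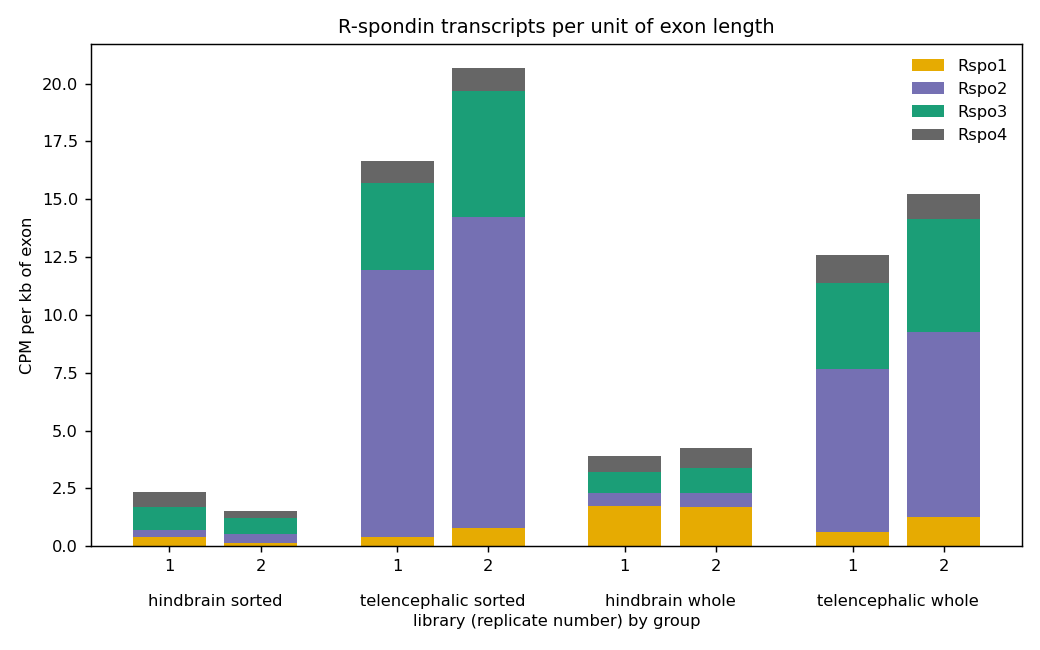
Levels of Rspo1 to Rspo4 stacked for each library, in CPM per kb of exon on an axis from 0, with replicates 1 and 2 of each group side by side. The telencephalic libraries reach 12.6 to 20.7 CPM per kb and the hindbrain libraries 1.51 to 4.25, and Rspo2 fills the largest part of each telencephalic bar.

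Of the receptors, Lgr4, a widely expressed member of the family, was the abundant one. It had 81.7 and 63.8 CPM in hindbrain sorted cells, against 81.4 and 77.2 CPM in telencephalic sorted cells. It had 75.4 and 72.6 CPM in hindbrain whole tissue, against 76.1 and 71.6 CPM in telencephalic whole tissue. The regions overlapped in both preparations. The region difference was -0.125 ± 0.13 in sorted cells (95% interval -0.41 to 0.16) and 0.0015 ± 0.13 in whole tissue (95% interval -0.29 to 0.29). With library totals as the scale the sorted value was 0.09, where the median of all genes moved to 0.201, against -0.001 with TMM.

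Lgr5 was scarce and its values stood higher in the hindbrain. It had 2.44 and 2.86 CPM in hindbrain sorted cells (67 and 78 counts), against 1.10 and 0.744 CPM in telencephalic sorted cells (29 and 12 counts). In whole tissue it had 1.81 and 3.45 CPM in the hindbrain (45 and 73 counts), against 0.612 and 1.36 CPM in the telencephalic libraries (10 and 13 counts). The hindbrain libraries lay above the telencephalic ones in both preparations, without overlap. The difference was 1.49 ± 0.48 in sorted cells, which missed the threshold (adjusted p = 0.0555), and 1.48 ± 0.52 in whole tissue (adjusted p = 0.143). With the brain as a block, the pairing that the design text gives, the sorted value was 1.497 and was called (adjusted p = 0.0226); it was also called without the low-count filter (adjusted p = 0.0221) and with library totals (1.70, adjusted p = 0.0264). Between sorted cells and whole tissue the values were 0.02 ± 0.45 in the hindbrain and, in the telencephalic plexus, 6.9e-05 ± 0.55, with wide intervals (-0.95 to 0.98 and -1.20 to 1.20).

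Lgr6, the receptor with the lowest level per kb in every group, had 13 and 25 counts in hindbrain sorted cells, against 3 and 4 in telencephalic sorted cells. It had 12 and 11 counts in hindbrain whole tissue, against 11 and 10 in telencephalic whole tissue. In CPM the hindbrain lay above the telencephalic libraries in sorted cells (0.473 and 0.917 against 0.113 and 0.248) and below them in whole tissue (0.484 and 0.519 against 0.673 and 1.05). Between sorted cells and whole tissue the value was -2.27 ± 0.82 in the telencephalic plexus, above the threshold and not called (adjusted p = 0.0583), but called with library totals (adjusted p = 0.027), with only the 4 telencephalic libraries (adjusted p = 0.0265) and without hindbrain sorted replicate 1 (adjusted p = 0.0349) or replicate 2 (adjusted p = 0.0393). By region, neither 1.99 ± 0.79 in sorted cells (adjusted p = 0.101) nor -0.74 ± 0.69 in whole tissue (adjusted p = 0.693) was called, nor was the interaction of 2.73 ± 1.05 (adjusted p = 0.38).

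The ligase Znrf3 was the more abundant of the pair. It had 44.6 CPM in each of the hindbrain sorted libraries, against 54.8 CPM in each of the telencephalic sorted ones. It had 40.4 and 47.3 CPM in hindbrain whole tissue, against 49.5 and 47.9 CPM in telencephalic whole tissue. The hindbrain lay below without overlap in both preparations, by a small margin. The values were -0.30 ± 0.12 in sorted cells (adjusted p = 0.128, 95% interval -0.56 to -0.03) and -0.15 ± 0.13 in whole tissue (adjusted p = 0.633), neither called. Between sorted cells and whole tissue Znrf3 differed by 0.02 ± 0.12 in the hindbrain and 0.17 ± 0.12 in the telencephalic plexus, not called.

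Rnf43 was lower in the hindbrain by a similar factor in both preparations. It had 7.35 and 5.47 CPM in hindbrain sorted cells (202 and 149 counts), against 11.3 and 11.3 CPM in telencephalic sorted cells (298 and 182 counts). In whole tissue it had 5.6 and 6.80 CPM in the hindbrain (139 and 144 counts), against 10.6 and 12.1 CPM in the telencephalic libraries (173 and 115 counts). No hindbrain library reached a telencephalic one. The change was -0.815 ± 0.22 in sorted cells, 1.76-fold lower (adjusted p = 0.0237), and -0.86 ± 0.22 in whole tissue, 1.82-fold lower (adjusted p = 0.0401), with an interaction of 0.05 ± 0.31 (95% interval -0.62 to 0.72). The calls were close to the threshold. Leaving out 1 sorted library removed the call in sorted cells for hindbrain replicate 2 (-0.62, adjusted p = 0.0642), telencephalic replicate 1 (adjusted p = 0.112) and telencephalic replicate 2 (adjusted p = 0.0813). It was also lost with library totals (-0.60, adjusted p = 0.088) and with the 4 sorted libraries alone (adjusted p = 0.0697). The whole-tissue call was lost in 6 of the 8 omissions of 1 library, all but those of the hindbrain sorted libraries (highest adjusted p = 0.282), and with library totals (adjusted p = 0.0823).

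**Figure D3:**
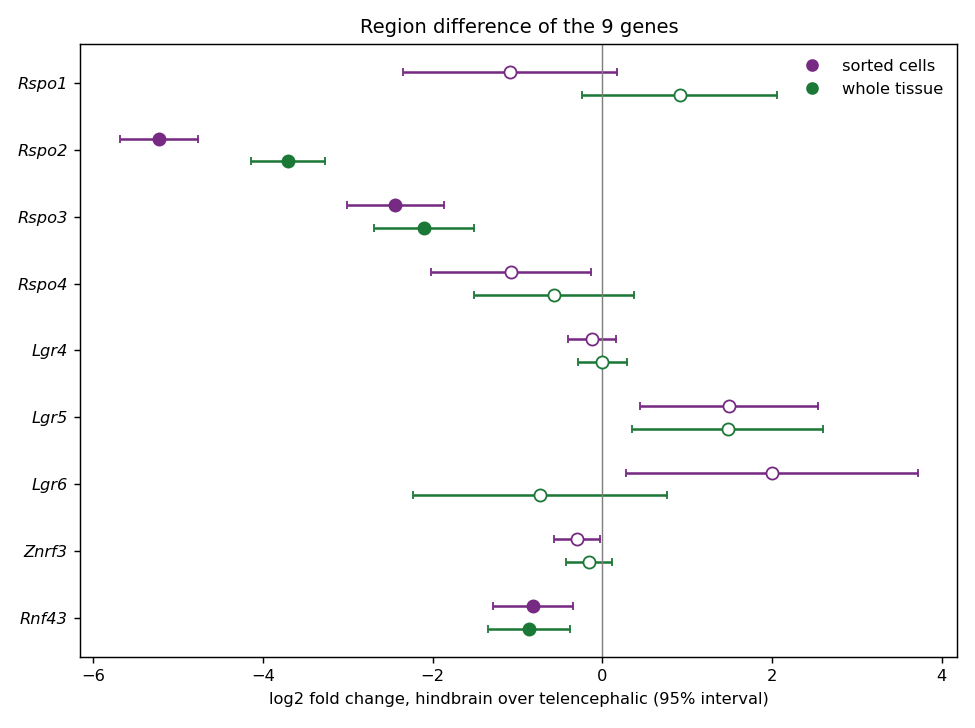
Log2 fold change of hindbrain over telencephalic libraries for each gene, with its 95% interval from the fit, in sorted cells (upper symbol of each pair) and whole tissue (lower symbol). Filled symbols are called and open ones are not; Rspo2 (-5.22 and -3.71), Rspo3 (-2.44 and -2.10) and Rnf43 (-0.815 and -0.86) are filled on the left of 0.

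Sequence upstream of the start was shown for the called genes that the RefSeq promoter table holds, Rnf43 and Rspo1. Entries for 5 of the 9 genes matched by symbol (Rspo1, Rspo4, Lgr4, Lgr6 and Rnf43), and Rspo2, Rspo3, Lgr5 and Znrf3 had none. Each window runs from 250 bases before the start to 50 after it in build GRCm38.p6, whereas the submitters' processing notes name mm9. The windows printed are on the plus strand, and that of Lgr6, not printed, is on the minus strand. Rnf43 has a pair of annotated starts, at chr11:87662837-87663136 and chr11:87699647-87699946, and Rspo1 has one, at chr4:124986180-124986479. Capitals mark a match to TAATCC, which reads GGATTA on the strand printed.
Rnf43, upstream start: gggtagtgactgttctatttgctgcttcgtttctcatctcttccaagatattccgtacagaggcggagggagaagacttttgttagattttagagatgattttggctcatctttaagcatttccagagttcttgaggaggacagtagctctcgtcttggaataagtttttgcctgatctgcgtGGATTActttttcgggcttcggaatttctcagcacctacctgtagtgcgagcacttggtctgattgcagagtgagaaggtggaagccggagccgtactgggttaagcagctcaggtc
Rnf43, downstream start: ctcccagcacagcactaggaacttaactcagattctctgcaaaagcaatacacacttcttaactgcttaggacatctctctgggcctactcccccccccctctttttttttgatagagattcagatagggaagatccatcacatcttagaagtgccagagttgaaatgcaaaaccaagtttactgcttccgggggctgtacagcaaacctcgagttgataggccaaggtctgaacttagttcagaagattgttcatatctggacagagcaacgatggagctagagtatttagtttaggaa
Rspo1: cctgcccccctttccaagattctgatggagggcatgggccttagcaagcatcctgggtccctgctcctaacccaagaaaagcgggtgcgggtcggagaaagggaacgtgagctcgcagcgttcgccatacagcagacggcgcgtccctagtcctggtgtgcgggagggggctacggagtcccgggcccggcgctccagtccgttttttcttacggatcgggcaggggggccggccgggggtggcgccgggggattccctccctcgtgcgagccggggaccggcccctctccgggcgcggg
Searched on both strands, TAATCC, a site of Otx homeobox factors, matched once in the upstream Rnf43 window and in none of the other windows of the 5 genes; 7.1% of 32851 windows of this length hold it. CTTTGA, the core site of the TCF/LEF factors of Wnt signalling, and TGACAG, a site of Meis factors, matched in none of them, against 16.0% and 19.2% of all windows. With 1 match in all, no matches overlap. The G and C content was 46.7% and 44.3% in the Rnf43 windows and 69.0% in that of Rspo1.

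Set against each other per kb of exon, the 9 genes kept the order at the top and bottom but not in the middle. Lgr4 ranked first in all 4 groups, from 14.4 ± 2.5 CPM per kb in hindbrain sorted cells to 15.7 ± 0.6 in telencephalic sorted cells (SD, n = 2). Lgr6 ranked last in all 4, between 0.0269 ± 0.014 in telencephalic sorted cells and 0.128 ± 0.039 in telencephalic whole tissue. Rspo2 ranked 7 in hindbrain sorted cells (0.333 ± 0.025) and 2 in telencephalic sorted cells (12.5 ± 1.4); it ranked 7 in hindbrain whole tissue (0.575 ± 0.064) and 2 in telencephalic whole tissue (7.52 ± 0.69). Rspo1 ranked 3 in hindbrain whole tissue, at 1.73 ± 0.04, and 7 or 8 in the other groups. In hindbrain sorted cells Lgr5 (0.562 ± 0.064) and Rspo4 (0.469 ± 0.25), neighbours in that order, did not differ beyond their spread, nor did Rspo2 and Rspo1 (0.278 ± 0.17). The ratio of summed ligand to summed receptor transcripts per kb was 0.140 and 0.113 in hindbrain sorted cells, against 1.02 and 1.34 in telencephalic sorted cells. In whole tissue it was 0.254 and 0.280 in the hindbrain, against 0.825 and 1.04 in the telencephalic libraries. The receptor sum, mostly Lgr4, lay between 13.4 and 16.7 CPM per kb in all 8 libraries.

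**Figure D4:**
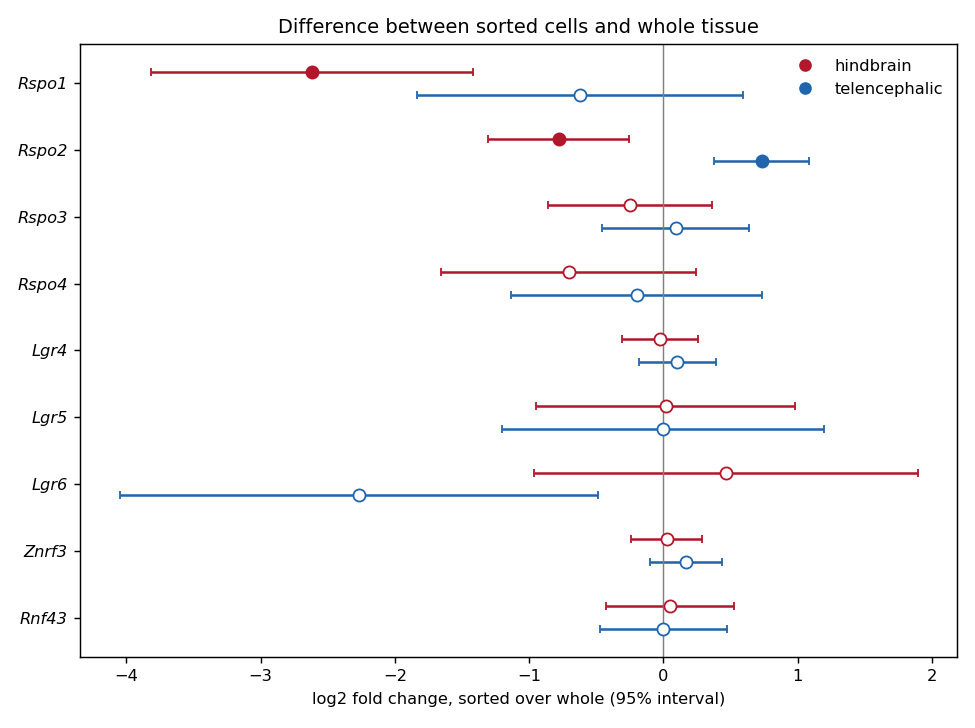
Log2 fold change of sorted cells over whole tissue for each gene, with its 95% interval from the fit, in the hindbrain (upper symbol of each pair) and the telencephalic plexus (lower symbol). Filled symbols are called: Rspo1 (-2.62) and Rspo2 (-0.78) in the hindbrain, and Rspo2 (0.73) in the telencephalic plexus.

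Genes whose levels followed the called ones over the 8 libraries were named by the correlation of log2 CPM, among 10084 named genes with a mean of at least 5 CPM. The 8 libraries fall into the 4 groups and are not 8 independent points, and r is given as a description. Nearest to Rspo2 were Tmem26 (r = 0.998), the zinc transporter gene Slc39a10 (0.995), the secreted factor Angptl2 (0.993) and Six3os1 (0.993), which overlaps Six3. Their own changes differed in size: Tmem26 stood at -1.65 in sorted cells and -1.19 in whole tissue, and Six3os1 at -5.14 and -4.19. Nearest to Rspo3 were Slc39a10 (0.99), Shisa9 (0.989) and Paqr9 (0.986). Nearest to Rnf43 were Shisa9 (0.986), the complement regulator Cd55 (0.984), the forebrain nuclear receptor Nr2e1 (0.981) and Tor3a (0.976).

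Other genes of the Wnt pathway were called in both directions. For all lists below, the share over all tested genes was 9.06% higher and 6.12% lower in sorted cells (median -0.001). In whole tissue it was 3.34% higher and 2.45% lower (median 0.005). Of 10 Frizzled receptors, the proteins that Znrf3 and Rnf43 remove, 3 were higher in the hindbrain in sorted cells, 1 was lower and 6 were not called (median -0.20). In whole tissue 3 were higher, 0 lower and 7 not called (median 0.29). Both medians include Fzd9, which passed the low-count filter through hindbrain libraries (17 counts in hindbrain and 3 in telencephalic whole tissue). Fzd5 averaged 48.8 ± 5.1 CPM in hindbrain sorted cells, against 32.0 ± 1.6 in telencephalic sorted cells (0.61 ± 0.14, adjusted p = 0.0105), and 46.8 ± 1.6 in hindbrain whole tissue, against 24.5 ± 3.1 in telencephalic whole tissue (0.925 ± 0.14, adjusted p = 0.00168). Fzd4, also the receptor of norrin, was higher by 0.71 ± 0.13 in sorted cells and by 0.575 ± 0.14 in whole tissue (adjusted p = 0.00339 and 0.0254). Fzd10 had 66 counts in hindbrain sorted cells, against 3 in telencephalic sorted cells, a ratio of 17.1 (95% counting interval 5.6 to 85.1), and was higher by 2.21 ± 0.51 in whole tissue (adjusted p = 0.0202). Of 9 Wnt co-receptors and intracellular transducers, 0 were called in either region comparison by edgeR or by DESeq2; at an unadjusted p below 0.05 edgeR gave 1 in sorted cells and 0 in whole tissue. Lrp6, the co-receptor that R-spondins help to keep at the surface, averaged 388 ± 50 CPM in hindbrain sorted cells, against 370 ± 9.5 in telencephalic sorted cells.

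Among 15 feedback and target genes of beta-catenin signalling 13 were tested. In sorted cells 2 were higher in the hindbrain, 2 lower and 9 not called (median -0.19). In whole tissue 2 were higher, 1 lower and 10 not called (median 0.03). Wif1, named only for this limit, was 1 of these 2, at 4.38 ± 0.31 CPM in the hindbrain against 0.446 ± 0.11. It had 11 counts in telencephalic whole tissue and 3 in telencephalic sorted cells, and passed the low-count filter through hindbrain libraries. The count of higher genes in whole tissue therefore depends on the filter. Axin2, the feedback inhibitor most used as a readout, averaged 57.3 ± 5.7 CPM in hindbrain sorted cells, against 65.3 ± 5.5 in telencephalic sorted cells, and 72.5 ± 0.5 in hindbrain whole tissue, against 71.0 ± 1.7 in telencephalic whole tissue. Its differences of -0.19 ± 0.12 and 0.03 ± 0.12 were not called (adjusted p = 0.343 and 0.947); the gene is named here because of its role, outside the naming rule, and so is Lrp6. Tnfrsf19, a receptor of the tumour necrosis factor family, fell by 0.79 in sorted cells and by 0.58 in whole tissue (adjusted p = 0.00199 and 0.0275). Bambi, a decoy receptor of the BMP pathway, was higher by 1.05 ± 0.24 in sorted cells (adjusted p = 0.011) and not called in whole tissue (0.54 ± 0.25). Apcdd1, an inhibitor of Wnt signalling at the membrane, was higher by 1.63 ± 0.32 in whole tissue (adjusted p = 0.00991) and not called in sorted cells (0.74 ± 0.34).

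Gpc4 and Gpc3, glypicans (heparan sulfate proteoglycans that bind secreted ligands), were lower in the hindbrain in sorted cells, and Gpc4 in whole tissue too. Of 6 R-spondin partners other than the Lgr receptors 5 were tested; 2 were lower in the hindbrain in sorted cells (median -0.26) and 1 in whole tissue (median -0.30), with 0 higher in either. DESeq2 called 2 in whole tissue. Gpc4 averaged 27.2 ± 1.6 CPM in hindbrain sorted cells, against 70.6 ± 0.4 in telencephalic sorted cells (-1.38 ± 0.14, adjusted p = 3.66e-05), and 32.5 ± 4.8 in hindbrain whole tissue, against 65.0 ± 7.8 in telencephalic whole tissue (-1.002 ± 0.14, adjusted p = 0.000954). Gpc3 averaged 531 ± 43 CPM in hindbrain sorted cells, against 897 ± 0.3 in telencephalic sorted cells (-0.76 ± 0.11, adjusted p = 0.000413), and was not called in whole tissue (-0.35 ± 0.11, adjusted p = 0.0796).

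Of 19 Wnt ligands 12 were tested. In sorted cells 4 were higher in the hindbrain, 1 lower and 7 not called (median 0.37, or 0.735 with Wnt8b at its bound and with Wnt1 and Wnt2, at 0 or 1 count, left out). In whole tissue 3 were higher, 1 lower and 8 not called (median 1.17). Placing Wnt1 and Wnt2 at their bounds could not move that median, since both bounds lie above it. Wnt1, Wnt2, Wnt3 and Wnt6 had 39, 27, 18 and 80 counts in hindbrain whole tissue, against 0, 0, 1 and 1 in telencephalic whole tissue. They passed the low-count filter through hindbrain libraries, and Wnt8b through telencephalic ones. The medians and counts of this list therefore depend on the filter and describe no regional trend of Wnt ligands. Wnt8b, a ligand of the dorsomedial forebrain, had 0 counts in hindbrain sorted cells, against 58 in telencephalic sorted cells, at least 24.9-fold lower against a floor of 3 counts over the group, and changed by -3.13 in whole tissue (adjusted p = 0.0129). Wnt5a, a ligand that mostly signals outside beta-catenin, and Wnt4 were the other genes named by the rule. Wnt5a was higher by 2.40 ± 0.11 in sorted cells and 1.56 ± 0.11 in whole tissue; Wnt4 was higher by 2.18 ± 0.32 in whole tissue (adjusted p = 0.00128) and not called in sorted cells (0.74 ± 0.31).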

How the data were processed

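RNA was measured in 8 libraries. Per the labels' protocols, pre-amplified cDNA (Ovation kit) was sequenced as paired ends; no strand-marking step is described. Tools named in the submitters' processing notes are CASAVA 1.8.2, TopHat2 2.0.4 and Bowtie2 2.0.5, with HTSeq, DESeq 1 and the build mm9. What the authors deposited are raw counts per gene symbol; the annotation and strand setting were not given in the sources used here. Without molecular identifiers, counting intervals and floors cover counting error only.

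The edgeR 4.0.16 quasi-likelihood test (R 4.3.3) used all 8 libraries, TMM scaling, 1 mean for each of the 4 groups, and the filterByExpr low-count filter (minimum count 10, total 15); the code was tested on simulated data. Standard errors and 95% intervals are Wald values of that fit. Replicates differed by more than sampling noise (chi-square per degree of freedom 5.16 to 15.8, and 61.1 in hindbrain sorted cells). The design text pairs the regions by brain; deviations from group means correlated at 0.193 in whole tissue and 0.145 in sorted cells. Alternatives were RLE factors, library totals, Ttr and Rn45s removed, no filter, DESeq2 1.42.0, 4 libraries alone, the brain as a block, and each library left out. The 9 genes and all lists were chosen with earlier results of these data known. Named beside the 9 genes were up to 3 called genes per pathway list by adjusted p, and the 4 genes most similar to each gene called by region, of which 1 is not reported here.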

Additional observations from a re-analysis of the deposited data

Results flagged for a closer look

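The regional difference of Rspo2 differed between the preparations by a test of that difference itself, with an interaction of -1.513 ± 0.29 on the log2 scale (adjusted p = 0.022, edgeR's quasi-likelihood test): -5.22 in sorted cells and -3.71 in whole tissue. With 1 library left out, the adjusted p reached 0.129 and the call held in 1 of 8 omissions. All 4 hindbrain libraries were below all 4 telencephalic ones. Groups of 2 libraries are too small for a check of single outlying libraries.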

How the results depend on the processing

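The regional falls of Rspo2 and Rspo3 kept their calls under all 15 alternatives in both preparations, with a highest adjusted p of 1.23e-06 and 0.000987 in sorted cells and 3.9e-05 and 0.0116 in whole tissue. Of 648 fold changes of the 9 genes under alternatives, 565 kept direction and call, 29 lost a call, 9 gained one and 45, all of uncalled results, changed sign. Of 108 group means under other scalings, 45 moved by at least 1 SD. With the brain as a block, the interaction was called for 337 genes, against 211 without it, and Lgr5 in sorted cells became called; in the 2 region comparisons and the interaction, where the block was fitted, it changed no other call of the 9 genes. The interaction was called for 441 genes with no filter and 335 with DESeq2. With the 4 libraries of a comparison alone, the calls over all genes were 1460 by region in sorted cells (2383 with all 8), 1587 in whole tissue (909) and 2236 for the hindbrain sort (3472), and among the 9 genes 1 for the hindbrain sort (2) and 2 for the telencephalic sort (1). The cause was not tested.

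With 1 library left out, the genes called among the 9 ranged from 2 to 4 by region in sorted cells, 2 to 3 in whole tissue, 0 to 1 for the interaction, 1 to 2 for the hindbrain sort and 0 to 2 for the telencephalic sort. Over all genes the ranges were 1051 to 3253, 316 to 1341, 58 to 473, 1691 to 3873 and 1519 to 4501 in that order. Fold changes that crossed 0 were -0.318 to 0.041 (Lgr4, region, sorted), -0.042 to 0.049 (Lgr4, region, whole), and, for the interaction, -0.312 to 0.041 (Lgr4), -0.593 to 0.557 (Lgr5) and -0.177 to 0.245 (Rnf43). For the hindbrain sort they were -0.215 to 0.143 (Lgr4), -0.38 to 0.542 (Lgr5), -0.082 to 0.864 (Lgr6), -0.086 to 0.137 (Znrf3) and -0.18 to 0.248 (Rnf43). For the telencephalic sort they were -0.186 to 0.335 (Rspo3), -0.539 to 0.607 (Lgr5) and -0.095 to 0.091 (Rnf43).

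Library totals moved the median log2 fold change of all genes to 0.201 by region in sorted cells, 0.086 in whole tissue, 0.125 for the interaction, -0.189 for the hindbrain sort and -0.304 for the telencephalic sort. The share of higher among called genes was then 83.5% (59.7% with TMM), 70.7% (57.6%), 20.1% (46.3%) and 10.5% (44.1%) for the region comparisons and the sorts in that order. Signs that changed with library totals were Lgr4 at 0.087 by region in sorted cells and 0.0035 for the interaction. In the hindbrain sort they were Lgr5 at -0.184, Znrf3 at -0.173 and Rnf43 at -0.139, and in the telencephalic sort Rspo3 at -0.225, Lgr4 at -0.217, Lgr5 at -0.324 and Znrf3 at -0.15. Lgr4 in whole tissue was at -0.0023 with its 4 libraries alone. Lgr5 in the telencephalic sort was at -0.016 with RLE factors, -0.0023 without Ttr and Rn45s and -0.04 with DESeq2, which gave -0.00039 in the hindbrain sort. Rnf43 in the telencephalic sort was at 0.0041 with no filter. The longest transcript as length, chosen after seeing the data, moved no ligand share by 1 SD. Depth limits Rspo1, Rspo4, Lgr5 and Lgr6, with under 100 counts in every library, and Rspo2 and Rspo3 in the hindbrain.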
